A study of Mus musculus with 12 samples.

Results

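The ErbB receptors, their ligands and the feedback inhibitor *Errfi1* were followed in neurosphere RNA with and without Ythdf2, a cytoplasmic reader of the RNA modification m6A. The set is a list of gene symbols, with no threshold on a measured value: the 4 receptor genes *Egfr*, *Erbb2*, *Erbb3* and *Erbb4*, the 5 ligand genes *Hbegf*, *Tgfa*, *Nrg1*, *Nrg2* and *Btc*, and *Errfi1*. All 10 were present among the 24525 genes of the count tables, and 8 of them passed the filter on low counts that left 13112 genes for testing. *Erbb3* and *Btc* did not pass it and are given as counts and levels.

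ErbB receptors are receptor tyrosine kinases that pair on binding a ligand of the EGF family. Hbegf, Tgfa and Btc bind Egfr, Hbegf and Btc also bind Erbb4, and the neuregulins bind Erbb3 and Erbb4. Erbb2 has no known ligand of its own and acts as a partner of the others, while Erbb3 has little kinase activity and signals through its partners. Most of these ligands are made as membrane proteins and released by metalloproteases. The receptors act through the Ras-ERK, PI3K-Akt and Stat pathways, and Errfi1 (Mig6) is a cytoplasmic protein, induced by ERK signalling, that blocks the receptors' kinase domains. In the embryonic forebrain, Egfr marks progenitors that answer EGF, which is why EGF keeps neurospheres dividing, and Erbb4 is best known in migrating interneurons.

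Neurospheres are floating cultures of neural stem/progenitor cells (NSPCs). These were grown from E14.5 embryo brains of C57BL/6 mice and taken at passage P1, in 3 wild type and 3 Ythdf2-/- libraries. In the Ythdf2-/- allele the first exon, placed between LoxP sites, had been removed by a Cre that is expressed throughout the animal, and Ythdf2-/- embryos came from crosses of heterozygous mice. Both genotypes were kept in medium with 20 ng/ml EGF and 10 ng/ml bFGF, so that a ligand of Egfr was supplied to all cultures, and B27 without vitamin A. The libraries are the input part of an m6A-IP experiment, that is, fragmented mRNA put aside before the antibody step. The 6 m6A-IP samples were not analysed here. The study calls the replicates biological, and neither it nor the labels say how many embryos went into each, so p-values measure the spread between these samples.

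The libraries held 11029827 to 13185778 counted reads, and levels are given as CPM, each count scaled to the total of its library and to 1000000 reads. *Ythdf2* was at 71.7, 72.9 and 90.6 CPM in wild type and at 11.7, 15.1 and 11 CPM in Ythdf2-/-, so that each library matched its label. The fitted difference was -2.66 ± 0.183 on the log2 scale (standard error), at an adjusted p = 0.0547 in edgeR's quasi-likelihood test. The defining progenitor markers *Vim* (1422 to 3116 CPM), *Fabp7* (753 to 2378 CPM) and *Nes* (262 to 1244 CPM) were expressed in all 6 libraries. Wild type replicate 3 stood apart: its summed level of 14 oligodendrocyte lineage markers was 6000 CPM against 1841 to 2324 CPM in the other 5 libraries. Of those 14 markers, 10 were highest in that library and 3 lowest, among them the abundant *Olig1* (542 against 869 to 1234 CPM) and *Olig2* (321 against 428 to 507 CPM). Its 12 neuronal markers summed to 2480 CPM (1484 to 1949 in the others), its 10 astroglial markers to 15773 CPM (4751 to 12740) and its 11 progenitor markers to 3532 CPM (4964 to 6830), although 7 of the 11 progenitor markers were highest in that library and 4, the abundant *Vim*, *Fabp7* and *Nes* among them, lowest. Of 6 interneuron markers, 2 were at 0 in every library, and the sum was 88.7 CPM in wild type replicate 3 and 31.9 to 58.4 CPM elsewhere. The 10 microglia markers summed to 0.511 to 1.22 CPM and the 8 endothelial markers to 2.51 to 4.53 CPM in all libraries, while the 8 mesenchymal markers summed to 34.7 CPM in wild type replicate 3 and to 2.66 to 5.47 CPM in the others. *Pdgfrb*, also a pericyte marker, made up 31.5 CPM of that sum, and 4 of the 8 were highest and 2 lowest in that library. Reads on Y-linked genes were found in wild type replicates 1 and 2 and Ythdf2-/- replicate 3, with at most 1 read in each of the other 3 libraries. Results that rest on wild type replicate 3 are given below with and without it.

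Ythdf2 binds mRNA that carries m6A, and m6A is written within a short consensus of which GGACU is the best known form. To show what this consensus looks like in the messages of the set, the coding sequences of the annotated RefSeq transcripts (GRCm38.p6, the assembly also called mm10) were searched on the sense strand for the DNA letters GGACT. The windows below are the matches nearest the stop codon, with the whole window in a single coding exon, in 3 receptors and 1 ligand, read 5′ to 3′ along the mRNA with the GGACT letters in capitals.
Egfr, chr11:16911729-16911763, plus strand: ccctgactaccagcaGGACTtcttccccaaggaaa
Erbb2, chr11:98436043-98436077, plus strand: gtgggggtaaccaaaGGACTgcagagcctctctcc
Erbb4, chr1:68080677-68080711, minus strand: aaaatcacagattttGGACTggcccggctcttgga
Tgfa, chr6:86271448-86271482, plus strand: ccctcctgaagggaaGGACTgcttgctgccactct

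The matches lie 107 bases before the end of the coding sequence in *Egfr*, 475 in *Erbb2*, 1288 in *Erbb4* and 30 in *Tgfa*. Over the whole mRNA, *Hbegf* held 2.53 matches per kilobase, a density above that of 95.6% of the 12093 tested genes with an annotated transcript. *Egfr* held 1.51 per kilobase, *Erbb3* 1.5, *Nrg2* 1.3, *Erbb2* 1.2, *Nrg1* 1.13, *Tgfa* 0.879, *Erbb4* 0.831, *Btc* 0.695 and *Errfi1* 0.328. The median over the 12093 genes was 1.05, with quartiles of 0.647 and 1.52. A match was found in 92.8% of these mRNAs and in 77.9% of their coding sequences, so its presence sets none of these genes apart. *Errfi1* and *Btc* had 0 matches in their coding sequence. Letters alone do not show whether a site is modified.

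*Egfr* was the dominant receptor message. To compare genes, the counts were divided by the library total and the gene length given in the deposited tables (RPKM, that is, CPM per kilobase). *Egfr* (chromosome 11, 16752203 to 16913907, plus strand, 28 exons) had a level of 64 ± 23.5 RPKM in wild type and 106 ± 16.3 RPKM in Ythdf2-/- (SD, n = 3 each). Over all 6 libraries its mean was 84.8 RPKM, above that of 93.4% of the genes tested. *Erbb4* followed at 13.6 RPKM, *Hbegf* at 10 RPKM, *Tgfa* at 6.08 RPKM, *Errfi1* at 5.42 RPKM and *Erbb2* at 3.24 RPKM. *Nrg2* (1.38 RPKM), *Nrg1* (0.446 RPKM), *Btc* (0.137 RPKM) and *Erbb3* (0.0967 RPKM) were at the bottom, and *Nrg2* lay above 12.9% of the genes tested by mean level. Of the 9 neighbouring pairs in this order, 5 had ranges over the 6 libraries that did not overlap: *Egfr* lay above *Erbb4*, *Errfi1* above *Erbb2*, *Erbb2* above *Nrg2*, *Nrg2* above *Nrg1* and *Nrg1* above *Btc*. The order of *Erbb4*, *Hbegf*, *Tgfa* and *Errfi1* changed from library to library, as did that of *Btc* and *Erbb3*. The deposited lengths of *Nrg1* (2103 bases) and *Erbb3* (4020 bases) equal the annotated coding lengths, and the annotated exons of *Nrg1* are longer. With annotated exon length the mean level of *Nrg1* would be 0.111 RPKM, below that of *Btc*, and that of *Nrg2* 0.627 RPKM, so the place of *Nrg1* above *Btc* and the ligand shares of both neuregulins depend on the deposited length.

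**Figure D1:**
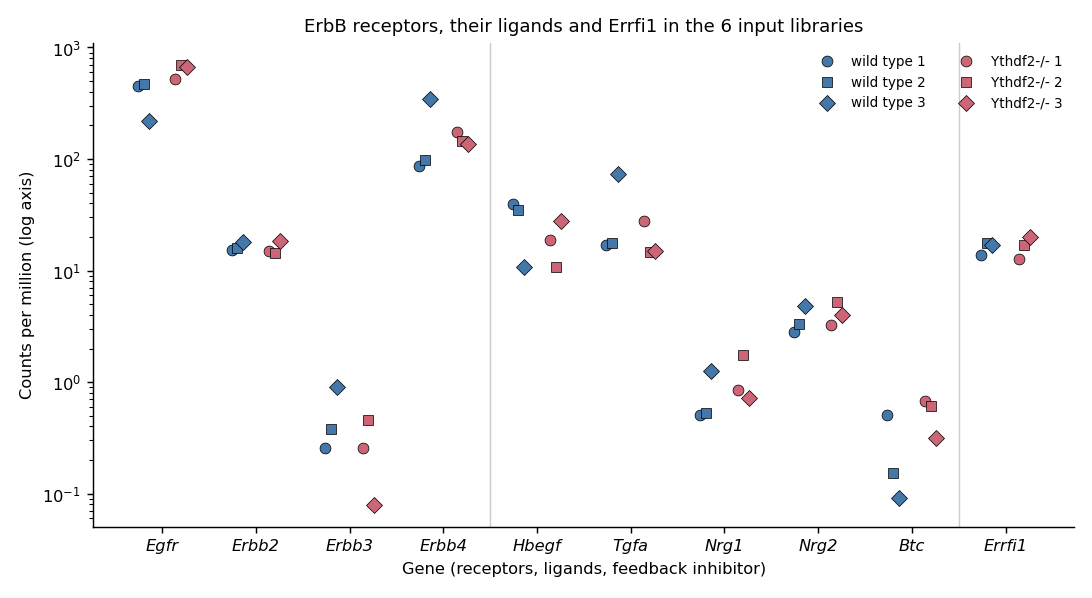
Level of each gene in CPM (log axis) in the 3 wild type (blue) and 3 Ythdf2-/- (red) libraries, with 1 symbol for each replicate number. *Egfr* lies at 220 to 701 CPM and *Erbb3* and *Btc* below 1 CPM, and wild type replicate 3 is set apart from the other wild type libraries in *Egfr*, *Erbb4*, *Hbegf* and *Tgfa*.

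The make-up of the receptor pool differed most in wild type replicate 3. *Egfr* took 83.3% to 88.6% of the summed RPKM of the 4 receptors in the other 5 libraries and 53.2% in that one. *Erbb4* took 8.25% and 8.94% in wild type replicates 1 and 2, 13.8%, 9.13% and 8.91% in the Ythdf2-/- libraries, and 41.3% in wild type replicate 3. *Egfr* exceeded *Erbb4* 10.7-, 9.78- and 1.29-fold per length in the wild type libraries and 6.06-, 9.71- and 9.89-fold in Ythdf2-/-. *Erbb2* stayed between 2.17% and 5.17% and *Erbb3* at or below 0.324%. Among the 5 ligands, *Hbegf* led with 76.4% and 73% in wild type replicates 1 and 2 and with 50.2%, 42.4% and 69.6% in Ythdf2-/-, whereas *Tgfa* led with 70.4% in wild type replicate 3. The neuregulins *Nrg1* and *Nrg2* made up 7.82% and 17.4% of the ligand sum in Ythdf2-/- replicate 2, their highest shares.

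**Figure D2:**
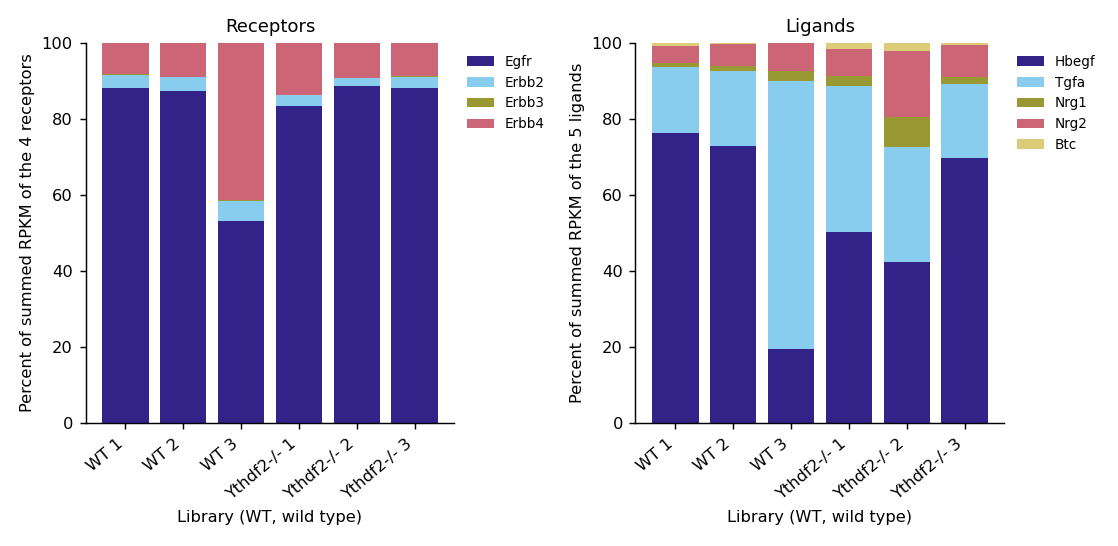
Share of the summed RPKM of the 4 receptors (left) and the 5 ligands (right) taken by each gene, in percent, in each library (WT, wild type). *Egfr* takes 83.3% to 88.6% of the receptor sum in 5 libraries and 53.2% in wild type replicate 3, where *Tgfa* takes 70.4% of the ligand sum.

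The comparison of Ythdf2-/- with wild type asks which of these genes change when the m6A reader is lost. None of the 8 tested genes passed an adjusted p of 0.05 in edgeR's quasi-likelihood test, and 0% of all 13112 genes did. At an unadjusted p under 0.05 the count was 0 of the 8, against 476 (3.63%) of all genes tested. DESeq2 called 31 of all genes and 0 of the 8. The median log2 fold change of the 8 genes was -0.01, as was that of all genes tested, with 4 higher and 4 lower in Ythdf2-/-. With wild type replicate 3 left out, 7 were higher and 1 lower, with a median of 0.27 beside 0.01 for all genes. In *Egfr* alone among the 8, every Ythdf2-/- library exceeded every wild type library, and in none was every Ythdf2-/- library the lower. Over all genes tested, 5.55% were higher and 4.35% lower in this way. Without wild type replicate 3 the wild type group is replicates 1 and 2. Their counts differed less from each other (chi-square per degree of freedom 4.57) than those of any Ythdf2-/- pair (22.5 to 56.5). In this fit 3 of the 8 genes (*Egfr*, *Erbb4* and *Hbegf*) had an unadjusted p under 0.05, against 16.6% of 13283 genes tested. Of the 8, 0 had an adjusted p under 0.05. In that comparison *Egfr*, *Erbb4* and *Nrg1* were higher without overlap and *Hbegf* was lower, while 19.5% of all genes were higher and 18.8% lower without overlap.

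**Figure D3:**
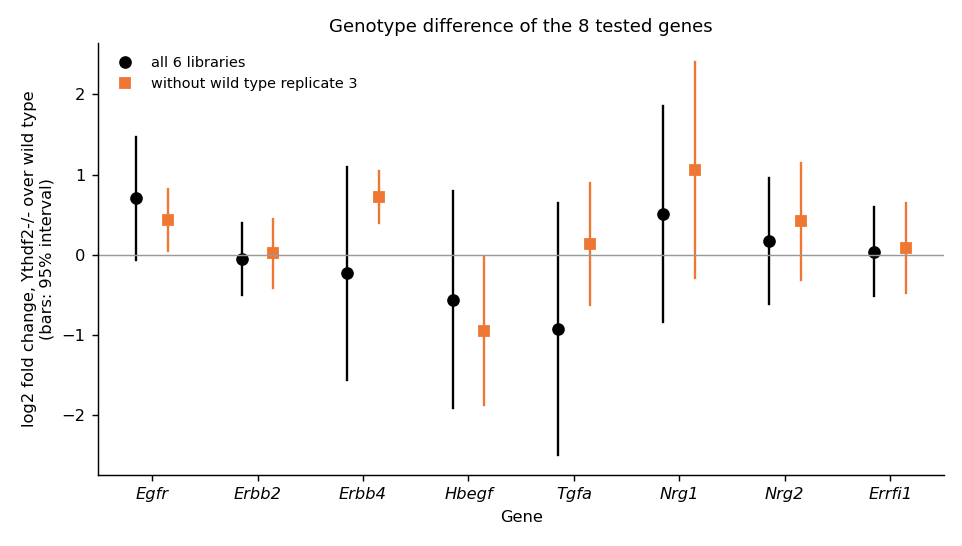
Log2 fold change of Ythdf2-/- over wild type for the 8 tested genes, with 95% intervals from edgeR's quasi-likelihood fit, for all 6 libraries (black) and without wild type replicate 3 (orange). *Erbb4* moves from -0.23 to 0.72 and *Tgfa* from -0.93 to 0.13 when that library is left out, while *Egfr* lies at 0.71 and 0.43.

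*Egfr*, the receptor for the EGF in the medium, was at 455, 470 and 220 CPM in wild type and at 519, 701 and 669 CPM in Ythdf2-/-. The lowest Ythdf2-/- library lay above the highest wild type library, and wild type replicate 3 was lowest of all, at 0.477 times the mean of the other wild type libraries. Wild type averaged 382 ± 140 CPM and Ythdf2-/- 630 ± 97.5 CPM (SD, n = 3 each), 165% of wild type. The log2 fold change was 0.71, with a 95% interval of -0.06 to 1.47 (edgeR adjusted p = 0.999). When wild type replicate 3 was left out it was 0.43 (0.05 to 0.82, edgeR adjusted p = 0.265). Its direction was the same in all 15 alternative fits, between 0.30 and 0.99, with adjusted p of 0.188 or more. Among libraries with Y-linked reads the Ythdf2-/- mean was 1.45 times that of wild type, and among those without it was 2.77 times. The progenitor marker *Nes*, at 1192, 1053 and 262 CPM in wild type and 723, 1244 and 985 CPM in Ythdf2-/-, was one of the 4 progenitor markers that were lowest in wild type replicate 3, while the other 7 were highest there. The part of these cells in the *Egfr* level was not tested. In bulk RNA, fewer cells that express a gene and less RNA per cell cannot be told apart.

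*Erbb4*, a neuregulin receptor, lies on the minus strand of chromosome 1 (68031884 to 69108576, 27 exons). It was at 86, 97 and 346 CPM in wild type and at 173, 146 and 136 CPM in Ythdf2-/-. The Ythdf2-/- libraries were close to each other and lay above 2 of the wild type libraries and below the third, which was 3.78 times the mean of the other wild type libraries. The means were 176 ± 147 and 152 ± 18.9 CPM (SD, n = 3 each), with a log2 fold change of -0.23 and an interval of -1.56 to 1.10 (edgeR adjusted p = 0.999). Leaving out wild type replicate 3 turned the direction to 0.72 (0.39 to 1.04, edgeR adjusted p = 0.151). The smallest adjusted p in any fit was 0.0604, from limma-voom with sample quality weights, where the log2 fold change was 0.76. Among the libraries with Y-linked reads Ythdf2-/- was at 1.49 times wild type. These are wild type replicates 1 and 2 and Ythdf2-/- replicate 3, a part of the comparison without wild type replicate 3. Among the libraries without such reads Ythdf2-/- was at 0.461 times wild type. Wild type replicate 3, the library with the high *Erbb4*, also held the highest summed interneuron, neuronal, astroglial, oligodendrocyte lineage and mesenchymal markers, although *Olig1*, *Olig2* and the neuronal *Gap43* were lowest there. Of the 12 neuronal markers 6 were highest and 2 lowest in that library, and of the 10 astroglial markers 5 were highest. *Gad1* made up 81.2 CPM of its interneuron sum of 88.7 CPM. The part of these cells in the *Erbb4* level was not tested.

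*Erbb2*, the partner receptor without a ligand, was the steadiest of the set. It was at 15.3, 16 and 18 CPM in wild type and at 15, 14.4 and 18.5 CPM in Ythdf2-/-, a span of 1.29-fold over all libraries. The groups overlapped fully, at 16.4 ± 1.38 and 15.9 ± 2.24 CPM (SD, n = 3 each). The log2 fold change was -0.05, with a 95% interval of -0.50 to 0.40. Without wild type replicate 3 it was 0.02 (-0.41 to 0.44). *Erbb3*, the receptor with little kinase activity, had 3, 5 and 10 counted reads in wild type and 3, 6 and 1 in Ythdf2-/-. These are 0.514 ± 0.346 and 0.264 ± 0.188 CPM (SD, n = 3 each), and the highest value was that of wild type replicate 3. In a fit of all genes with at least 1 count its log2 fold change was -0.92, with an interval of -2.72 to 0.89 (edgeR adjusted p = 0.996). No difference was detected, and the part of read depth in this was not tested.

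*Hbegf*, a ligand of Egfr and Erbb4 that is shed from the cell surface, was at 39.5, 34.7 and 10.7 CPM in wild type and at 18.9, 10.7 and 28 CPM in Ythdf2-/-. Wild type replicates 1 and 2 were the highest of all, and wild type replicate 3 was level with Ythdf2-/- replicate 2 at the bottom. The means were 28.3 ± 15.4 and 19.2 ± 8.67 CPM (SD, n = 3 each), and the log2 fold change lay at -0.56 (-1.91 to 0.79, edgeR adjusted p = 0.999). In the fit without wild type replicate 3 it was -0.95 (-1.87 to -0.03, edgeR adjusted p = 0.292). With a term for Y-linked reads it was 0.01, and the means of Ythdf2-/- over wild type were 0.757 in libraries with such reads and 1.38 in those without. *Hbegf* shares 406 exon bases with a gene on the opposite strand, and the strand setting of the counting is not given in the sources used here, so reads of the pair may be mixed.

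*Tgfa*, a ligand of Egfr, was at 16.9, 17.8 and 73.8 CPM in wild type and at 27.7, 14.7 and 15 CPM in Ythdf2-/-. Of its 6 values 4 lay between 14.7 and 17.8 CPM, and the highest was that of wild type replicate 3, at 4.25 times the mean of the other wild type libraries. The means were 36.2 ± 32.6 and 19.1 ± 7.45 CPM (SD, n = 3 each), with a log2 fold change of -0.93 (-2.50 to 0.64, adjusted p = 0.999 from edgeR). Without that library the value was 0.13 (-0.63 to 0.89, adjusted p = 0.864 from edgeR), so the lower mean in Ythdf2-/- rests on 1 wild type library. *Btc*, betacellulin, had 6, 2 and 1 counted reads in wild type and 8, 8 and 4 in Ythdf2-/-. At 0.252 ± 0.228 and 0.536 ± 0.192 CPM (SD, n = 3 each) the groups overlapped. In the fit without a filter beyond 1 count its log2 fold change was 1.05, with an interval of -0.68 to 2.78 (edgeR adjusted p = 0.996). Whether the low number of reads hides a difference was not tested.

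The neuregulin genes, whose products bind Erbb3 and Erbb4, were low. *Nrg1* had 6, 7 and 14 counted reads in wild type and 10, 23 and 9 in Ythdf2-/-, with the highest value in Ythdf2-/- replicate 2 and the next in wild type replicate 3. The log2 fold change was 0.51 (-0.84 to 1.86) and without wild type replicate 3 it was 1.06 (-0.29 to 2.40), with adjusted p of 0.999 and 0.383 from edgeR. Its exons share 2958 bases with other annotated genes, which is a further limit on so few reads. *Nrg2* had 33, 44 and 53 counted reads in wild type and 38, 69 and 50 in Ythdf2-/-, at 3.65 ± 1.03 and 4.15 ± 1.02 CPM (SD, n = 3 each). The groups overlapped, and the log2 fold change was 0.17 (-0.62 to 0.96, adjusted p = 0.999 from edgeR). Without wild type replicate 3 it was 0.42 (-0.31 to 1.15, adjusted p = 0.519 from edgeR).

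*Errfi1*, the feedback inhibitor of the receptors' kinase (chromosome 4, 150853796 to 150868889, plus strand, 4 exons), varied little between libraries. It was at 13.7, 17.5 and 17 CPM in wild type and at 12.8, 17 and 20.1 CPM in Ythdf2-/-, with overlapping groups and a span of 1.56-fold. The means were 16.1 ± 2.1 and 16.7 ± 3.64 CPM (SD, n = 3 each), and the log2 fold change was 0.04 (-0.51 to 0.59, adjusted p = 0.999 from edgeR). It was 0.08 (-0.48 to 0.65) when wild type replicate 3 was left out. In wild type replicate 3, where *Egfr* was lowest, *Errfi1* was at 1.09 times the mean of the other wild type libraries. Per length, *Egfr* exceeded *Errfi1* 16.9-, 13.6- and 6.55-fold in wild type and 20.4-, 20.8- and 16.8-fold in Ythdf2-/-.

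Several other inhibitors of the pathway varied more between libraries than *Errfi1*, while *Socs4*, at 10.2 to 16 CPM, varied about as little. *Dusp6*, an ERK phosphatase that ERK signalling induces, was at 266, 271 and 25.7 CPM in wild type and at 168, 101 and 332 CPM in Ythdf2-/-. *Spry4*, a Sprouty inhibitor of receptor tyrosine kinase signalling, was at 242, 229 and 14.6 CPM in wild type and at 146, 100 and 221 CPM in Ythdf2-/-. Both were lowest in wild type replicate 3 and next lowest in Ythdf2-/- replicate 2, and *Hbegf* and *Spry4* ranked the 6 libraries in the same order, although *Hbegf* hardly differed between the lowest pair. *Spry1* (19.9 CPM in wild type replicate 3 against 38.2 to 152 CPM elsewhere), *Spry2* (182 against 222 to 368 CPM) and the receptor inhibitor *Lrig1* (427 against 606 to 843 CPM) were lowest in the same library. *Lrig2*, of the same family, was highest there (49.3 against 26.8 to 40.1 CPM), and *Lrig3*, at 24.7 CPM, was second to Ythdf2-/- replicate 2. *Adam12* and *Adam19*, metalloproteases that can shed ErbB ligands, were there at 12.3 and 11.7 CPM, against 122 to 312 and 36.1 to 117 CPM in the other libraries. These 9 genes, *Adam19* aside, were picked after their values had been seen. Between genotypes none differed at an unadjusted p under 0.05 with all 6 libraries: the log2 fold change was 0.09 for *Dusp6* (standard error 0.855) and -0.06 for *Spry4* (standard error 0.896). With that library left out, *Adam19* was at -1.23 (edgeR adjusted p = 0.151), and the other 8 did not reach an unadjusted p of 0.05.

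**Figure D4:**
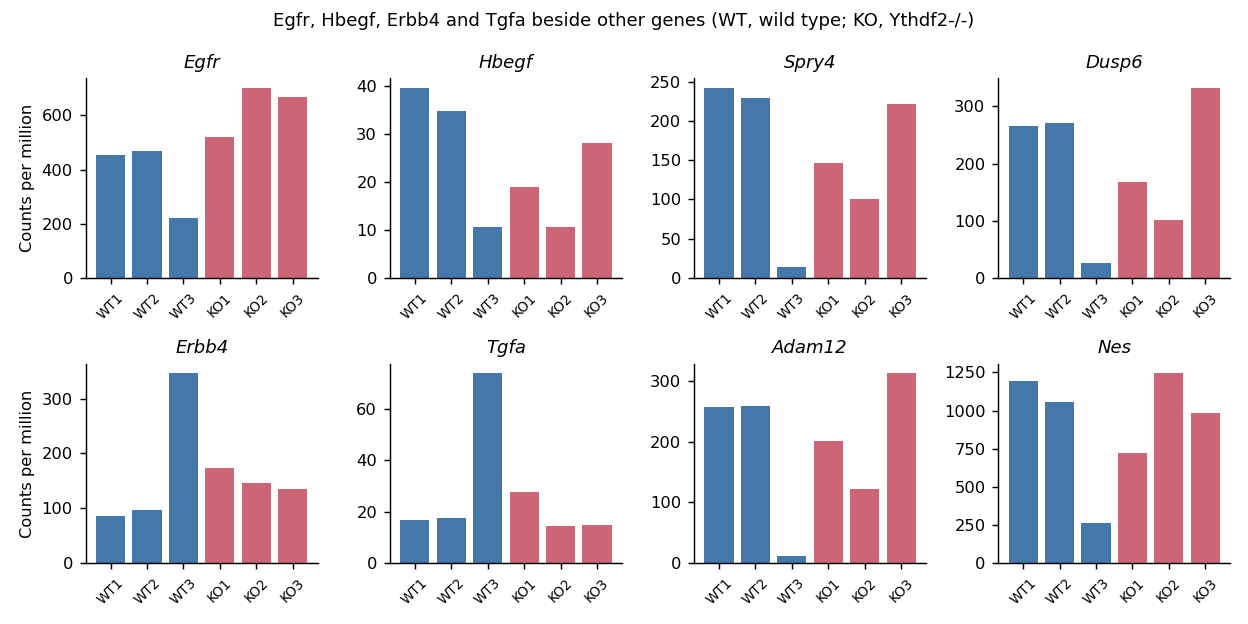
Levels in CPM of *Egfr*, *Hbegf*, *Erbb4* and *Tgfa* beside *Spry4*, *Dusp6*, *Adam12* and *Nes* in the 3 wild type (blue, WT) and 3 Ythdf2-/- (red, KO) libraries; each panel has its own axis from 0. In wild type replicate 3 *Erbb4* (346 CPM) and *Tgfa* (73.8 CPM) are highest and *Egfr* (220 CPM), *Spry4* (14.6 CPM), *Dusp6* (25.7 CPM) and *Adam12* (12.3 CPM) lowest.

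The rest of the pathway was read from 7 lists with 54 genes, of which 50 were tested. None passed an adjusted p of 0.05 or an unadjusted p of 0.05 with all 6 libraries, 25 were higher and 25 lower in Ythdf2-/-, and their median log2 fold change was 0.00 beside -0.01 for all genes. Without wild type replicate 3, 5 were higher and 4 lower at an unadjusted p under 0.05, 9 of 50 beside 16.6% of all genes in that fit, and 0 passed the adjusted threshold.

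Among the ligands, 3 of 6 others could be tested. *Areg*, amphiregulin, was at 2.05, 1.67 and 0.272 CPM in wild type and 0.511, 0.836 and 0.0794 CPM in Ythdf2-/- (log2 fold change -1.49, edgeR adjusted p = 0.999), and *Nrg4* had a log2 fold change of -0.62. Without wild type replicate 3 *Areg* was at -1.95 (edgeR adjusted p = 0.244) and *Nrg4* at -0.21. *Egf* itself was at 1.06 to 2.36 CPM, and *Ereg* had 0 counts in every library. Of the sheddases and their partners, 2 of 6 tested were higher and 4 lower, with a median of -0.06. *Adam17*, the main sheddase of Hbegf and Tgfa, was at 107 to 129 CPM with a log2 fold change of 0.01, and *Adam10*, which sheds Btc, was at 179 to 274 CPM with -0.02. The 2 with the smallest p were *Adam19* (-0.72) and *Bace1* (-0.09), the protease that cleaves Nrg1. *Bace1* turned to 0.20 when wild type replicate 3 was left out (edgeR adjusted p = 0.324).

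Among the 11 adaptors, ubiquitin ligases and proximal enzymes, 6 were higher and 5 lower, all between -0.09 and 0.19 on the log2 scale. *Nck1*, an adaptor, was at 30.6, 31.2 and 28.4 CPM in wild type and 34.4, 34.7 and 33.4 CPM in Ythdf2-/-, without overlap (log2 fold change 0.17, edgeR adjusted p = 0.999). *Sos1*, which loads Ras with GTP, had a log2 fold change of 0.19. In the Ras-ERK cascade 2 of 9 genes were higher and 7 lower, from -0.33 for *Mapk3*, which encodes ERK1, to 0.04, with *Nras* at -0.25. In the PI3K-Akt branch 7 of 9 were higher, with *Mtor*, the growth-controlling kinase, at 0.27 and *Pik3r2*, a regulatory subunit of PI3K, at 0.24. The Stat branch had *Stat3* at -0.32 and *Stat5a* at -0.39. Of the 9 negative regulators besides *Errfi1*, 7 were higher, with *Socs4* and *Socs5*, suppressors of cytokine and EGF receptor signalling, at 0.27 each. Without wild type replicate 3 *Socs4* was at 0.44 and *Socs5* at 0.04 (edgeR adjusted p = 0.277 and 0.937). Leaving out wild type replicate 3 moved the negative regulators to 4 higher and 5 lower, with the median going from 0.13 to -0.01, the adaptors to 10 of 11 higher and the PI3K-Akt branch to 5 of 9 higher. With all 6 libraries, none of these log2 fold changes had an unadjusted p under 0.05 in edgeR's test.

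**Figure D5:**
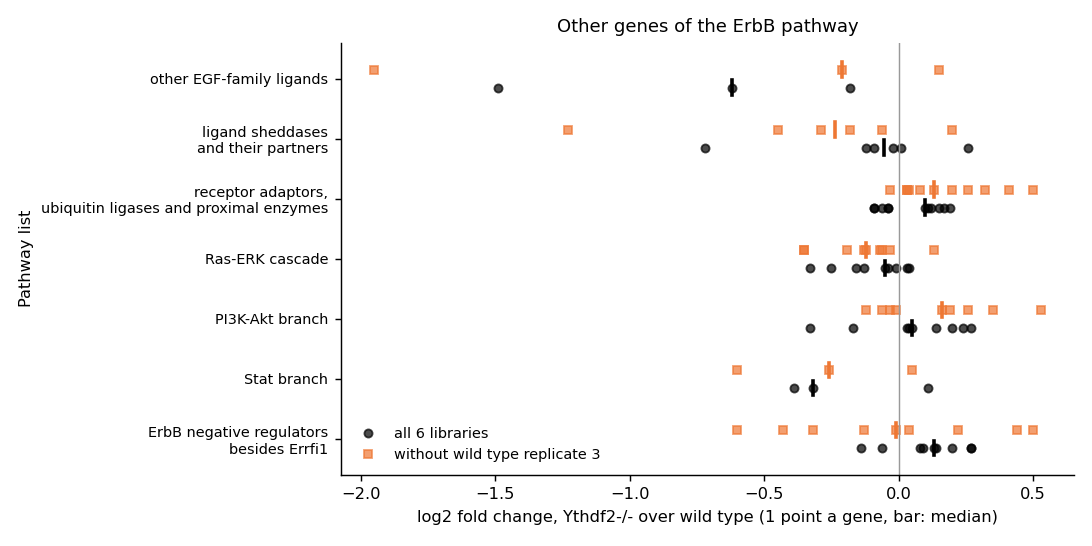
Log2 fold change of Ythdf2-/- over wild type for the 50 tested genes of the 7 pathway lists, 1 point a gene with the list's median as a bar, for all 6 libraries (black) and without wild type replicate 3 (orange). Medians with all libraries run from -0.62 in the 3 other ligands to 0.13 in the 9 negative regulators.

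The genes whose log2 CPM followed each receptor most closely over the 6 libraries were looked for among the other 9825 genes with a mean of at least 10 CPM. For *Egfr* these were *Tor1aip2*, a partner of torsin ATPases (Pearson's r = 0.996), *Akap17b* (0.995) and *Ndufaf3*, an assembly factor of mitochondrial complex I (0.995), and 3 genes had an r over 0.99. For *Erbb4* they were *Vps13b* (0.998), *Ncoa2*, a coactivator of nuclear receptors (0.997), and *Wipf2* (0.996), and 24 genes had an r over 0.99. For *Erbb2* they were *Atxn2*, an RNA-binding protein gene (0.986), *Tbl1xr1*, part of a corepressor complex (0.981), and *Inpp4b*, a phosphoinositide phosphatase gene (0.980). Without wild type replicate 3 the r of these 9 genes ran from 0.977 to 0.998. The points share library depth and, with 6 libraries and 9825 genes, high values occur for many genes, so the r are a description.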

How the data were processed

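Input RNA-seq of 3 wild type and 3 Ythdf2-/- NSPC samples was used, grouped by the labels' genotype and number; the 6 m6A-IP samples were not analysed here. The authors deposited raw counts per gene without normalization, and beside them tables of expected counts and FPKM with gene lengths in the form of RSEM output. The methods name mm10 and TopHat, and the submitters' processing notes list Bowtie2 2.2.9, RSEM 1.2.15 and featureCounts. Which program made the counts, and its strand setting, is not given in the sources used here. The deposited expected counts summed to 1.97% to 2.4% of the raw counts, so the raw counts were the main data.

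CPM used library totals. The quasi-likelihood test of edgeR 4.0.16 in R 4.3.3 (TMM scaling, robust fit) was run on genes kept by filterByExpr, with genotype as the only term, Benjamini-Hochberg adjustment over all genes; the test was checked on simulated data. The 95% intervals use the fit's degrees of freedom. An exact permutation test of 3 against 3 cannot go below 0.1. Log2 CPM for likeness used a prior count of 2. Alternatives used DESeq2 1.42.0, limma 3.58.1, other scalings and filters, a replicate block, a term for Y-linked reads (over 3 reads) and each library left out. No pair of replicates was identical, and chi-square per degree of freedom was 4.57 to 140. The members and lists were chosen with earlier results of these data known. Named were all 10 members, *Ythdf2*, per pathway list the genes past an adjusted p of 0.05 or else the 2 of smallest p, the 3 genes most like each tested receptor, and up to 3 markers of highest mean CPM per cell type list; genes named outside this rule (*Dusp6*, *Spry1*, *Spry2*, *Spry4*, *Lrig1*, *Lrig2*, *Lrig3*, *Adam12*, *Adam10*, *Adam17*, *Egf*, *Ereg*, *Pik3r1*) were chosen after their values were seen. A marker gene and a sequence window are not reported here. Sequences and positions are RefSeq's on GRCm38.p6.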

Additional observations from a re-analysis of the deposited data

Results flagged for a closer look

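The expected counts themselves were not used for any comparison above, which took the gene lengths from the same tables, and 2 genes of the set with at least 10 expected counts in a library had a higher value there in a Ythdf2-/- library than in any wild type library. *Erbb2* and *Errfi1* did too, at highest values of 2 and 4 expected counts. For *Egfr* the highest was 52.1 expected counts, in Ythdf2-/- replicate 3, against 14.4 to 24.5 in the other 5 libraries. For *Btc* it was 35.9 in Ythdf2-/- replicate 1, against 34.5 in wild type replicate 3. *Btc* had 9.75 to 35.9 expected counts in the 6 libraries but 1 to 8 raw counts, and its expected count exceeded the raw count in all 6 libraries. The other 9 genes of the set had fewer expected than raw counts in every library, and 768 genes of the tables exceeded their raw count in all 6. The reason was not tested.

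The genotype difference of 4 genes pointed in opposite directions in libraries with and without Y-linked reads, with every library of a kind on the same side. Ythdf2-/- over wild type was 1.49 with such reads and 0.461 without for *Erbb4*, 1.18 and 0.817 for *Erbb2*, 0.757 and 1.38 for *Hbegf*, and 1.29 and 0.876 for *Errfi1*. These differences were not tested. The libraries without Y-linked reads hold 1 wild type sample, replicate 3, so that library and the absence of Y-linked reads cannot be told apart in wild type. For *Hbegf* and *Errfi1* the separation among the libraries without such reads rests on a pair of nearly equal values, 10.7 and 10.7 CPM and 17 and 17 CPM.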

How the results depend on the processing

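In 118 alternative fits of the 8 tested genes, 105 kept the direction, and 0 of the 8 genes had an adjusted p under 0.05 in any of the 15 alternatives. *Egfr* kept its direction in all 15 and *Nrg1* in the 13 that tested it; *Nrg1* fell below the filter with at least 10 counts in every library and without Ythdf2-/- replicate 2, which held its highest count. The count of all genes called was 0 in the main comparison, 1 with DESeq2 size factors, 1 without a filter, 1 with at least 10 counts in every library, 31 with DESeq2, 151 with sample quality weights, 13 with the term for Y-linked reads, and 0 to 2 when 1 library was left out, with 2 without wild type replicate 3. The median log2 fold change of the 8 genes, -0.01, moved to 0.24 with quality weights and to 0.27 without wild type replicate 3. Leaving out 1 library at a time gave -0.15 to 0.27 for that median. The quality weight of wild type replicate 3 was 0.0957, against 0.477 to 4.09 in the other libraries. The fit with quality weights and the fit without that library are therefore not independent. *Erbb4* turned upward with limma-voom (0.06), quality weights (0.76) and the replicate block (0.09) and without wild type replicate 3 (0.72). When 1 library was left out, *Erbb4* ran from -0.56 to 0.72, *Tgfa* from -1.28 to 0.13, *Erbb2* from -0.19 to 0.04 and *Errfi1* from -0.13 to 0.20. *Tgfa* turned upward with quality weights (0.31) and without that library (0.13), and *Hbegf* reached 0.01 with the Y-linked term. The rest lay near 0: *Erbb2* at 0.02 and 0.04 without wild type replicate 3 or Ythdf2-/- replicate 2, *Nrg2* at 0.00 without Ythdf2-/- replicate 2, and *Errfi1* at -0.13 with quality weights and -0.07 and -0.13 without wild type replicate 1 or Ythdf2-/- replicate 3. Deviations of same-numbered libraries from the mean of their genotype correlated at -0.25, -0.24 and -0.39. Deviations of 3 libraries from their own mean depend on each other, so these values cannot decide whether the numbers pair the samples. The labels do not say either. The replicate block called 0 genes and gave a median of 0.06 for the 8 genes. Of the 50 pathway genes, 1 passed an adjusted p of 0.05 with quality weights (*Pik3r1*, log2 fold change 0.59, adjusted p = 0.0474 from limma-voom). With the deposited FPKM in place of RPKM, the level of *Egfr* was 16.5, of *Erbb4* 0.42 and of *Btc* 27.6. *Erbb3*, *Btc* and *Nrg1* each had 23 counted reads or fewer per library, and the part of read depth in their results was not tested. The causes of these shifts were not tested.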
